A study of Mus musculus with 6 samples.

Results

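This report describes 10 genes of the bone morphogenetic protein (BMP) pathway in the mouse fracture callus. They are the ligands Bmp2, Bmp3, Bmp4, Bmp6 and Bmp7, the secreted antagonists Nog and Grem1, and the receptors Bmpr1a, Bmpr1b and Bmpr2. The genes were chosen by symbol, and all 10 were among the 52081 genes that the 6 libraries share. For each gene, the cell types that carried its transcripts were compared, and the levels were then compared between the genotype labels.

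BMPs are secreted dimers that were first known for inducing ectopic bone. They bind a complex of type I receptors (Bmpr1a and Bmpr1b among them) and type II receptors (Bmpr2 among them), which phosphorylates receptor SMADs, and these enter the nucleus with Smad4 and switch on targets such as the Id genes. Noggin (Nog) and gremlin (Grem1) bind the ligands outside the cell and keep them from the receptors. In a healing fracture, cartilage matures through hypertrophy and is replaced by bone, and BMP signalling is known to act on chondrocytes, osteoblasts and vessels during this process.

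Calluses were taken from 12-week-old mice at 14 days post fracture (dpf) after a transverse femoral fracture, and 3′ single-cell libraries were made with a unique molecular identifier (UMI) on each transcript. There are 3 control libraries and 3 libraries labelled knockout. Per the labels the controls are wt and the other group is Col2CreERT with a deletion of Piezo3, whereas the design text names Piezo1 and the paper gives the genotypes as Piezo1 f/f and Col2a1CreERT2; Piezo1 f/f. Tamoxifen was given to both groups at 75 mg/kg on 5 consecutive days starting on day 5, so that the inducible Cre deletes Piezo1, a mechanosensitive ion channel, in cells that use the Col2a1 promoter. The callus was dissociated whole. The numbers of mice differ between the paper's results and methods, so p-values measure the spread between these libraries.

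The libraries held 57626530 to 103784364 UMIs, and 41863 cells were kept. Pairs of libraries shared 4 to 36 cell barcodes. Levels are given as CPM, the UMIs of a gene per 1000000 UMIs of a cell class in a library, which allows a gene to be compared between classes but not with another gene. Classes carry the suffix "-like" since clusters were named from marker genes. The markers of chondrocyte-like, osteoblast-like and endothelial-like cells were highest in their own class for every marker (13 of 13, 10 of 10 and 10 of 10), whereas 4 of 7 markers were highest in the hypertrophic chondrocyte-like and in the marrow stromal-like class, and only 2 of 7 in the periosteal-like and in the inflammatory fibroblast-like class. Neutrophil-like cells, which should lack most of these genes, serve as a guide to the level of free RNA. They cannot do so for Bmpr1a, which was higher in them than in endothelial-like and macrophage-like cells. The class includes a cluster with Elane, Prtn3 and Mpo among its leading genes (782 cells).

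UMIs of the targeted gene did not separate the groups, whereas the paper reports that immunofluorescence staining for Piezo1 protein verified the knockout. Piezo1 stood at 68.1, 44.3 and 51.4 CPM in the cartilage-like cells of control libraries 1 to 3 and at 136, 53.5 and 47.1 CPM in those of knockout libraries 1 to 3, and a 3′ tag need not lie in the deleted exons. The group is therefore called labelled knockout. Libraries also stood apart in other ways. Knockout library 3 carried Xist, which is expressed from the inactive X chromosome, at 513 CPM in cartilage-like cells and no UMI there of the Y-linked gene Ddx3y, against 0 to 0.317 CPM of Xist and 67.1 to 137 CPM of Ddx3y in the other 5 libraries, although the paper describes the mice as male. Knockout library 2 held only 51 cartilage-like cells, against 338 to 1698 in the others, and little free cartilage RNA, with Col2a1 at 16.1 CPM in its neutrophil-like cells against 335 to 3127 CPM elsewhere. Stromal cells in clusters with very few UMIs made up 54.2% and 55.2% of the stromal cells in control 1 and knockout 1 and 9.76% to 19.1% in the others, and they were kept out of every class.

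The receptors ranked highest in other classes than the ligands, although several classes carried both. The antagonist Nog shared its highest class with Bmp2 and Bmp6. Among the ligands, Bmp2 and Bmp6 were highest in hypertrophic chondrocyte-like (HTC-like) cells and Bmp3, Bmp4 and Bmp7 in osteoblast-like cells. The place of Bmp7 was not resolved, since its mean CPM was higher in T and NK-like cells. Nog was highest in HTC-like cells and Grem1, by mean log2(CPM + 1) but not by mean CPM, in marrow stromal-like cells. The receptors were highest outside cartilage and bone, Bmpr1a in periosteal-like, Bmpr1b in inflammatory fibroblast-like and Bmpr2 in endothelial-like cells. The classes were ordered by the mean of log2(CPM + 1) over libraries, and each neighbouring pair was compared within libraries by an exact two-sided sign-flip permutation test, whose smallest p with 6 libraries is 0.03125. With p-values adjusted over the 10 genes, no step from the highest class to the next passed the threshold of 0.05, and the lowest adjusted p was 0.104. The order and the pairs tested came from the same values, so neighbouring classes were close and the direction of a step was largely set by construction. The p-values of steps, here and below, therefore describe the spread between libraries and give no independent support for the order. Over the whole order of 16 classes, each gene had 15 steps. An unadjusted p of 0.03125 was reached by 3 steps for Bmp3 and for Bmpr2, 2 for Bmpr1b and 1 each for Bmp2, Bmp4, Nog and Bmpr1a. For Bmp6, Bmp7 and Grem1 it was reached by 0. Steps to or from erythroid-like cells rested on 4 libraries and could not reach it.

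**Figure D1:**
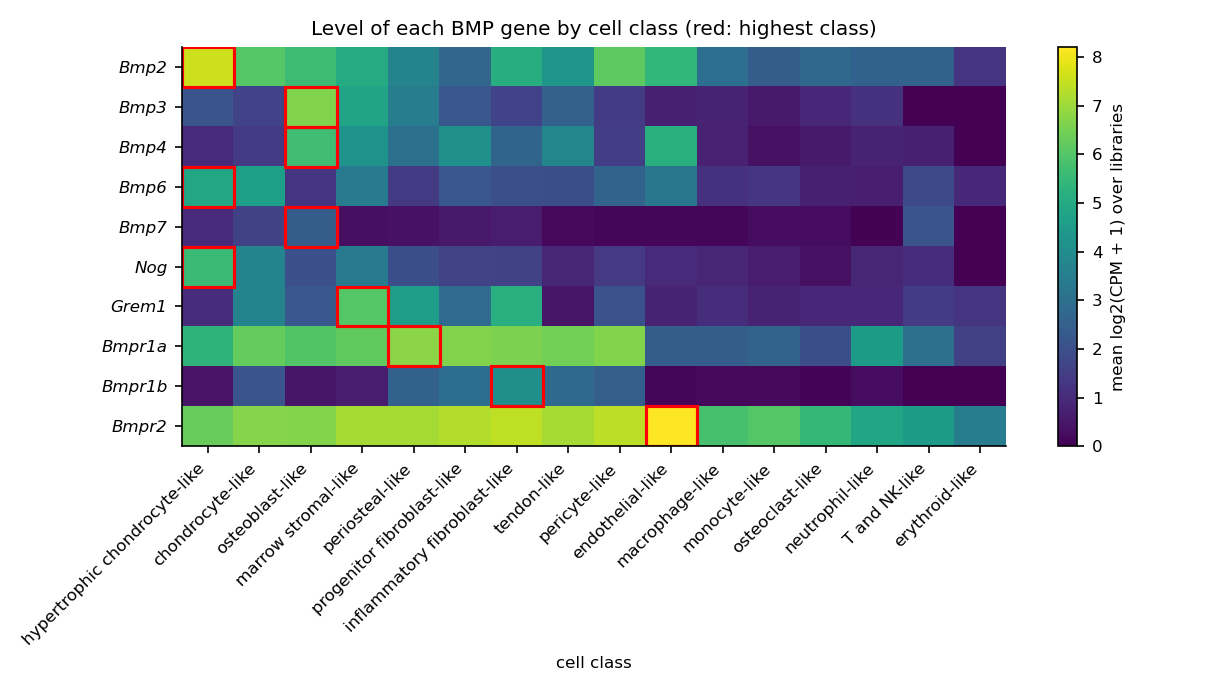
Mean log2(CPM + 1) over libraries of the 10 BMP genes (rows) in the 16 cell classes found in at least 4 libraries (columns), with the highest class of each gene boxed in red. Bmp2, Bmp6 and Nog peak in HTC-like cells, Bmp3 and Bmp4 in osteoblast-like cells, and Bmpr2 in endothelial-like cells, while Bmpr1a is spread over the stromal-like classes.

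Bmp2, an osteogenic ligand that fracture repair is known to need, had 30794 UMIs in all. In HTC-like cells it stood at 392, 307 and 27.9 CPM in control libraries 1 to 3 and at 975, 26.1 and 560 CPM in knockout libraries 1 to 3, a mean of 381 ± 358 CPM (SD, n = 6). Each group thus held a library far below its others, and the groups overlapped. The libraries with low levels were control 3 and knockout 2, with 16 and 25 HTC-like cells, and control 2 had only 10. The next class in order was pericyte-like cells, a class of vessel mural cells with Rgs5, Acta2, Myh11 and Tagln among its leading genes. They stood at 139, 96.8 and 60.2 CPM in the controls and 116, 17.8 and 75.7 CPM in the labelled knockouts. By mean CPM chondrocyte-like cells stood above them, at 108 ± 92.4 against 84.3 ± 43.1 CPM (SD, n = 6). The step between these 2 classes was not resolved (exact permutation p = 0.8125). HTC-like cells exceeded pericyte-like cells in 5 of 6 libraries, by 1.42 ± 1.54 on the log2 scale (SD, n = 6, exact permutation p = 0.0938, adjusted p = 0.156). Endothelial-like cells carried 44.9 ± 14.5 CPM of Bmp2 (SD, n = 6), with knockout 2 at 15.7 CPM and the other 5 libraries between 47.5 and 53.4 CPM. In neutrophil-like cells the level was 0 to 21.4 CPM.

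Chondrocyte-like cells held 36.5% of the Bmp2 UMIs summed over the 6 libraries, HTC-like cells 24.96% and endothelial-like cells 7.42%. Knockout 2 was the lowest library for Bmp2 in HTC-like, chondrocyte-like, pericyte-like and endothelial-like cells alike. It held few cartilage-like cells but 1432 endothelial-like and 105 pericyte-like cells. Over all its cells Bmp2 stood at 8.61 CPM, against 24.5 to 141 CPM in the other 5 libraries.

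Bmp6, a ligand with osteogenic activity that is also known for its part in iron homeostasis, had 5243 UMIs and followed Bmp2 in its highest class. It stood at 82.4, 69.9 and 0 CPM in the HTC-like cells of controls 1 to 3 and at 71.8, 20.9 and 77.8 CPM in those of knockouts 1 to 3. The 0 in control 3 rests on 16 cells, in which 3 UMIs would have given 11.97 CPM. HTC-like cells were higher than chondrocyte-like cells, the next class, in 5 of 6 libraries, but the mean difference of 0.28 on the log2 scale was smaller than its spread (exact permutation p = 0.781). Together these cartilage-like classes held most of the Bmp6 UMIs, with 49.1% in chondrocyte-like and 20.2% in HTC-like cells.

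Bmp3, which is abundant in bone matrix and is known to counteract osteogenic BMPs, was found mainly in bone cells. In osteoblast-like cells it stood at 143, 109 and 86.0 CPM in the controls and at 119, 68.2 and 85.3 CPM in the labelled knockouts, and the highest value in any other class was 71.8 CPM, in the 16 HTC-like cells of control 3. The next class was marrow stromal-like cells at 27.8 ± 8.75 CPM (SD, n = 6). Osteoblast-like cells were higher in 6 of 6 libraries, by 1.85 ± 0.66 on the log2 scale, which reached the smallest p possible (exact permutation p = 0.0312, adjusted p = 0.104). The next steps, from marrow stromal-like to periosteal-like and from periosteal-like to tendon-like cells, also had the same direction in 6 of 6 libraries. Osteoblast-like cells held 63.0% of the Bmp3 UMIs summed over libraries and 48.8% to 67.5% within a library. In neutrophil-like cells Bmp3 was at 0 to 3.83 CPM.

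Bmp4, an osteogenic ligand that vessels also express, had a pair of sources. It stood at 69.3, 96.6 and 39.7 CPM in the osteoblast-like cells of the controls and at 34.8, 34.8 and 52.8 CPM in those of the labelled knockouts, so that the groups overlapped. In endothelial-like cells it was at 42.2, 39.1 and 30.9 CPM in the controls and at 41.6, 31.6 and 24.3 CPM in the labelled knockouts. Osteoblast-like cells were higher than endothelial-like cells in 5 of 6 libraries, by 0.55 on the log2 scale (exact permutation p = 0.0938). Endothelial-like cells in turn exceeded marrow stromal-like cells in 6 of 6 libraries, by 0.95. In UMIs the order was the other way round, since endothelial-like cells are more numerous, with 33.9% of the Bmp4 UMIs against 32.2% in osteoblast-like cells. Cartilage-like cells were nearly without Bmp4, at 0.740 to 4.195 CPM.

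Bmp7, a ligand long used for its osteogenic effect, was rare, with 736 UMIs in all. Its level in osteoblast-like cells, its highest class by mean log2(CPM + 1), was 5.64 ± 4.40 CPM (SD, n = 6), with a range of 1.09 to 12.7 CPM. Mean CPM was higher in T and NK-like cells, at 6.82 ± 7.06 (SD, n = 6). That class had a median of 2615 UMIs per cell. It held only 21, 28 and 62 cells in control 1, knockout 1 and knockout 3, so single UMIs weigh heavily there. Osteoblast-like cells exceeded T and NK-like cells, the next class, in only 3 of 6 libraries, so that the order of classes could not be resolved at this depth. Osteoblast-like cells held 49.6% of its UMIs.

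**Figure D2:**
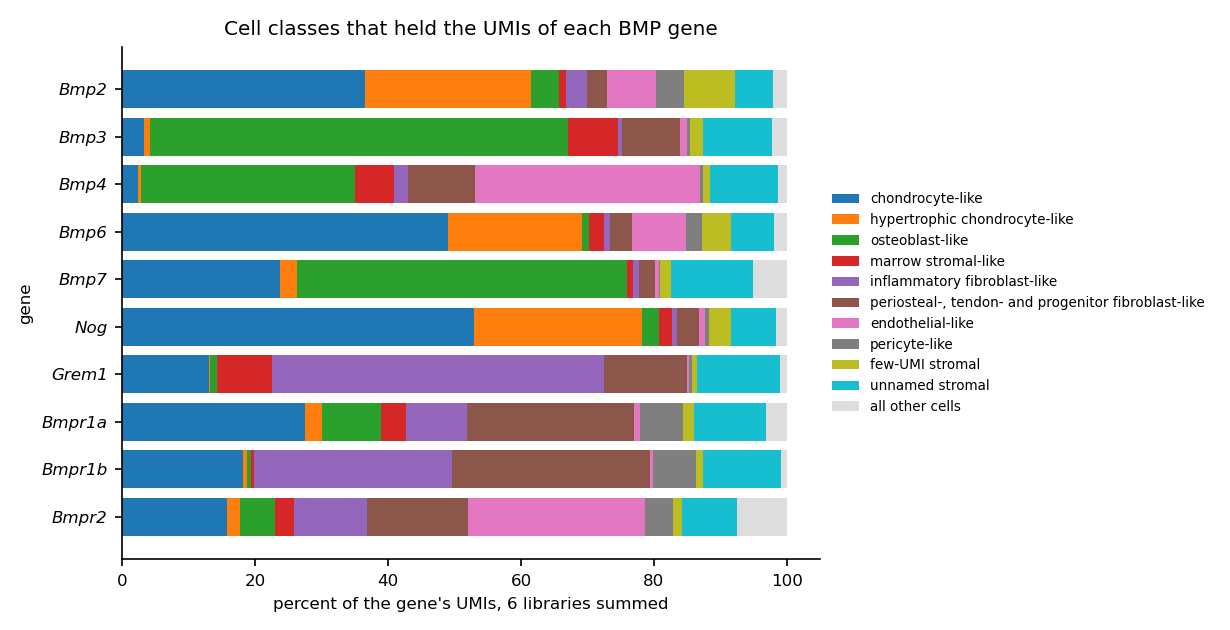
Percent of each BMP gene's UMIs (x axis, 6 libraries summed) held by each cell class (colours). Osteoblast-like cells hold 63.0% of Bmp3 UMIs, chondrocyte-like cells 53.0% of Nog, inflammatory fibroblast-like cells 49.9% of Grem1 and endothelial-like cells 26.6% of Bmpr2. The Grem1 share depends strongly on control 3, which held 695 of the 1058 inflammatory fibroblast-like cells. Grem1 in that class ranged from 2.65 to 307 CPM between libraries and was highest in control 3.

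Nog, whose product noggin blocks Bmp2, Bmp4 and other ligands, was found where Bmp2 was highest. It stood at 58.3, 96.8 and 23.9 CPM in the HTC-like cells of controls 1 to 3 and at 65.8, 10.4 and 112 CPM in those of knockouts 1 to 3. In chondrocyte-like cells it was at 37.0, 16.0 and 4.47 CPM in the controls and at 29.996, 0 and 44.6 CPM in the labelled knockouts. HTC-like cells were higher in 6 of 6 libraries, by 1.88 ± 1.06 on the log2 scale (exact permutation p = 0.0312, adjusted p = 0.104). Libraries low in Nog, control 3 and knockout 2, were also the libraries low in Bmp2. Chondrocyte-like and HTC-like cells held 53.0% and 25.2% of the 4822 Nog UMIs (0% to 66.7% and 4.05% to 34.5% within a library), and neutrophil-like cells stood at 0 to 5.07 CPM.

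Grem1, whose product gremlin binds Bmp2, Bmp4 and Bmp7, was low in mature cartilage. In marrow stromal-like cells, a cluster led by Mmp9, Cxcl12, Gdpd2, Lifr, Rasgrp2 and Mmp13, it was at 53.0, 290 and 90.4 CPM in controls 1 to 3 and at 70.1, 37.8 and 20.6 CPM in knockouts 1 to 3. Of the 7 marrow stromal markers, only Cxcl12 and Lpl were among the 10 leading genes of that cluster, and Lepr and Adipoq were not. The identity of these cells is therefore uncertain wherever the class is named. In inflammatory fibroblast-like cells the libraries fell apart into levels of 307 CPM in control 3 and 262 CPM in knockout 1 and levels of 2.65 to 22.6 CPM in the other 4. The same 2 libraries were also the highest for Grem1 in periosteal-like cells, at 56.8 and 42.7 CPM against 10.3 to 26.1 CPM. These libraries belong to different groups, and they held the most inflammatory fibroblast-like cells, 695 and 147 against 39 to 74 in the others. The step between the marrow stromal-like and the inflammatory fibroblast-like class was not resolved (higher in 4 of 6 libraries, exact permutation p = 0.438). Mean CPM had the opposite order, at 93.7 ± 99.4 in marrow stromal-like and 104 ± 140 in inflammatory fibroblast-like cells (SD, n = 6). HTC-like cells carried 0 to 6.98 CPM of Grem1, against 0 to 34.6 CPM in chondrocyte-like cells.

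Bmpr1a, a type I receptor with a broad range, was present in every stromal-like class and in pericyte-like cells. It stood at 139, 93.5 and 128 CPM in the periosteal-like cells of the controls and at 127, 93.9 and 79.6 CPM in those of the labelled knockouts. The next class, progenitor fibroblast-like cells at 101 ± 21.7 CPM (SD, n = 6), did not differ from it beyond the spread (0.11 on the log2 scale, higher in 3 of 6 libraries, exact permutation p = 0.500). The periosteal-like cluster had the periosteal markers Ptn, Aspn, Ogn and Sfrp2 among its leading genes, but Tnmd, a tendon marker, came first. Endothelial-like cells carried only 2.24 to 8.49 CPM and macrophage-like cells 1.38 to 8.09 CPM. Neutrophil-like cells were higher than both, at 14.5 to 42.2 CPM, so these levels differ among blood-derived and vascular classes and are not a common floor.

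Bmpr1b, a type I receptor known for its part in the cartilage of the digits, was rare, with 1466 UMIs. In inflammatory fibroblast-like cells it stood at 44.3, 24.5 and 15.5 CPM in the controls and at 22.6, 4.54 and 8.09 CPM in the labelled knockouts. It exceeded progenitor fibroblast-like cells, the next class, in 6 of 6 libraries, by 1.10 ± 0.55 on the log2 scale (exact permutation p = 0.0312, adjusted p = 0.104). Chondrocyte-like cells carried 3.80 ± 2.05 CPM (SD, n = 6) and osteoblast-like cells 0 to 1.2005 CPM.

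Bmpr2, the type II receptor whose loss is known to cause heritable pulmonary arterial hypertension, was the most often counted of the 10 genes, with 57026 UMIs. In endothelial-like cells it stood at 389, 346 and 302 CPM in the controls and at 387, 201 and 202 CPM in the labelled knockouts. The next class, inflammatory fibroblast-like cells at 200 ± 129 CPM (SD, n = 6), was lower in 5 of 6 libraries, by 0.79 on the log2 scale (exact permutation p = 0.0625). Knockouts 2 and 3 were the lowest libraries for Bmpr2 over all cells, at 67.7 and 76.7 CPM against 131 to 224 CPM in the other 4. Macrophage-like cells carried 30.5 to 97.0 CPM of Bmpr2 and monocyte-like cells 36.2 to 108 CPM, ranges that overlap that of neutrophil-like cells at 13.4 to 60.3 CPM. These ranges ignore the pairing by library. Within libraries, macrophage-like cells exceeded osteoclast-like cells in 6 of 6. Osteoclast-like cells in turn exceeded neutrophil-like cells in 5 of 6 (exact permutation p = 0.0938). Macrophage-like and monocyte-like cells were not themselves tested against neutrophil-like cells.

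Within cartilage, the CPM of Bmp2, Bmp6 and Nog differed between the chondrocyte-like clusters in the opposite direction to the receptors. Chondrocyte-like cells formed a cluster in which Ucma led (the Ucma cluster, 2085 cells) and a cluster led by Hapln1 and Snorc (the Hapln1 cluster, 1100 cells). HTC-like cells (599 cells), with Col10a1 and Ihh among the leading genes, formed another. Clustering did not use the 10 BMP genes. These clusters were chosen for comparison after their values were seen, 80 comparisons of this kind were made, and the lowest adjusted p over them was 0.125. Knockout 2 had too few cells in the Ucma cluster, which leaves 5 libraries and a smallest exact p of 0.0625.

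From the Ucma cluster to the Hapln1 cluster, Bmp2 was higher in 5 of 5 libraries, by 2.31 ± 0.35 on the log2 scale (exact permutation p = 0.0625). In the Ucma cluster it stood at 49.8, 19.3 and 17.4 CPM in the controls and at 85.9 and 49.7 CPM in knockouts 1 and 3. In the Hapln1 cluster it was at 323, 125 and 64.8 CPM in the controls and at 412 and 223 CPM in knockouts 1 and 3. Every library thus moved the same way, whatever its own level. Nog was higher by 2.40 ± 0.43, from a mean of 8.36 to 48.8 CPM, and Bmp6 by 1.54 ± 0.81, from 17.0 to 44.4 CPM, each in 5 of 5 libraries. Bmpr1a was lower in 5 of 5 libraries, by a mean difference of -0.99 ± 0.31, from 110 to 55.3 CPM. Bmpr1b went the same way, by -1.35 ± 0.26, from 5.85 to only 1.73 CPM, and Bmpr2 by -0.34 ± 0.088.

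Against the Ucma cluster, HTC-like cells carried more Bmp2, by 2.90 ± 1.30 on the log2 scale, and more Nog, by 3.03 ± 0.85, in 5 of 5 libraries. Grem1 was lower by a mean difference of -3.44 ± 1.42, from 25.9 to 2.35 CPM, and Bmpr1a by -1.51 ± 0.52, from 110 to 40.9 CPM. Bmpr1b was lower by a mean difference of -2.20 ± 0.76, from 5.85 to 0.518 CPM. Each of these genes was lower in 5 of 5 libraries. For Bmpr1b that count says little. Controls 2 and 3 held only 10 and 16 HTC-like cells, too few to count a gene at such a level. Bmp6 was higher in HTC-like cells by 1.15 on average, but the spread was 2.32, since control 3 held none there. Between the Hapln1 cluster and HTC-like cells, Bmp2 was higher in HTC-like cells in 5 of 6 libraries (0.74 ± 1.04, exact permutation p = 0.0938) and Nog in 5 of 6 (1.11 ± 1.32, p = 0.0625). Bmp6 was not resolved there, at -0.33 ± 2.06 (higher in 4 of 6 libraries), with Bmpr1a at -0.34 ± 0.54 and Bmpr2 at -0.22 ± 0.33.

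The clusters also differed in depth, with a median of 16784 UMIs per cell in the Ucma cluster, 26430.5 in the Hapln1 cluster and 19878 in HTC-like cells. Counted as UMIs per cell, Bmpr1a was still lower in 5 of 5 libraries in both comparisons, with means of 2.86 in the Ucma cluster, 2.01 in the Hapln1 cluster and 1.33 in HTC-like cells. Bmpr2 per cell was higher in the Hapln1 cluster in 4 of 5 libraries, with means of 3.65 and 3.74, so its lower CPM there was not seen per cell.

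**Figure D3:**
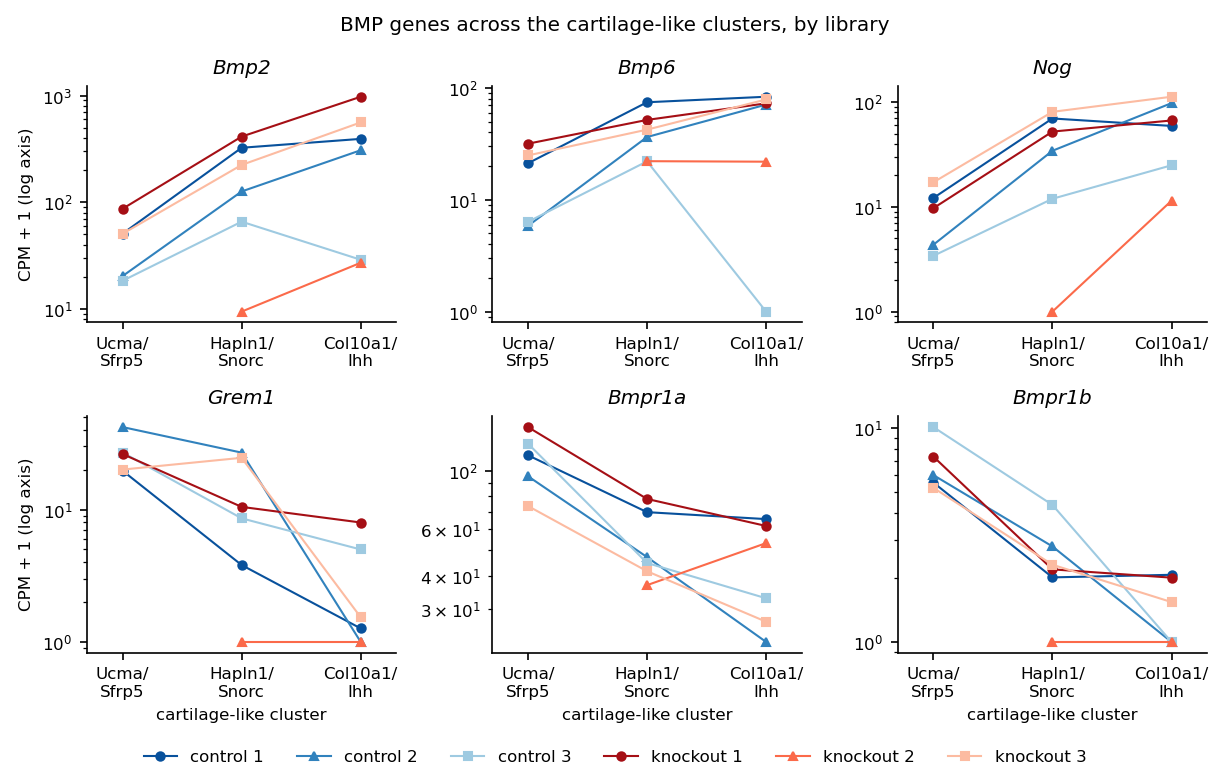
CPM + 1 (log axis) of 6 BMP genes in the cartilage-like clusters, named by leading genes, with a line for each library (blue, control; red, labelled knockout). Bmp2, Bmp6 and Nog lie higher in the Hapln1 cluster than in the Ucma cluster in every library with both, and Bmpr1a and Bmpr1b lie lower.

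Bone held a contrast of its own. Osteoblast-like cells formed a cluster led by Bglap and Ifitm5 (2308 cells) and a smaller cluster with Dmp1 and Phex, genes of maturing osteocytes, among the leading genes (434 cells). Bmp4 stood at 16.0, 16.6 and 18.9 CPM in the Bglap cluster of the controls and at 9.88, 14.4 and 24.7 CPM in that of the labelled knockouts. In the Dmp1 cluster it was at 184, 402 and 113 CPM in the controls and at 177, 176 and 154 CPM in the labelled knockouts, so that the ranges of the clusters did not overlap. The difference was 3.44 ± 0.78 on the log2 scale, in 6 of 6 libraries (exact permutation p = 0.0312, adjusted over the 80 comparisons p = 0.125). Bmp2 was higher in the Dmp1 cluster by 2.70 ± 1.18 and Bmp3 by 1.67 ± 0.39, each in 6 of 6 libraries. The mean of Bmp3 was 67.6 ± 9.41 CPM in the Bglap cluster and 228 ± 80.0 CPM in the Dmp1 cluster (SD, n = 6). Bmpr1a and Bmpr2 showed differences of 0.0043 ± 0.40 and -0.096 ± 0.41. The median depth of these clusters was close, at 13204.5 and 13337.5 UMIs per cell. Knockout 1 held only 11 cells in the Dmp1 cluster.

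In endothelial-like cells, a venous and an arterial cluster were each compared with the largest cluster. They were not tested against each other, and the remaining endothelial-like clusters were not compared. Of these clusters, Bmp4 was highest in the cluster with Selp, Ackr1 and Vwf, genes of venous endothelium, among its leading genes (926 cells). It stood there at 122, 85.8 and 75.5 CPM in the controls and 122, 143 and 93.9 CPM in the labelled knockouts. The largest cluster, led by Plvap and Flt1 (3362 cells), carried 20.4 to 28.0 CPM, and the difference was 2.04 ± 0.32 on the log2 scale in 6 of 6 libraries (exact permutation p = 0.0312, adjusted p = 0.125). Bmpr2 was also higher in the Selp cluster, by 0.44 ± 0.10, from 301 ± 83.3 to 408 ± 111 CPM. Per cell the Selp cluster was higher in 4 of 6 libraries, but its mean was lower, at 3.45 UMIs against 3.66 in the Plvap cluster. Of the same clusters, Bmp6 was highest in the cluster with Gja4 and Sema3g, genes of arterial endothelium, among its leading genes (587 cells). It stood there at 43.2, 35.5 and 58.4 CPM in the controls and at 20.2, 63.4 and 21.3 CPM in the labelled knockouts, against 1.47 to 8.41 CPM in the Plvap cluster. That difference was 2.92 ± 1.30, in 6 of 6 libraries. Bmp2 was also higher in the Gja4 than in the Plvap cluster in 5 of 6 libraries, at 84.3 against 46.4 CPM (exact permutation p = 0.0625). Median depth was 7222, 7664 and 7200 UMIs per cell in the Plvap, Selp and Gja4 clusters.

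**Figure D4:**
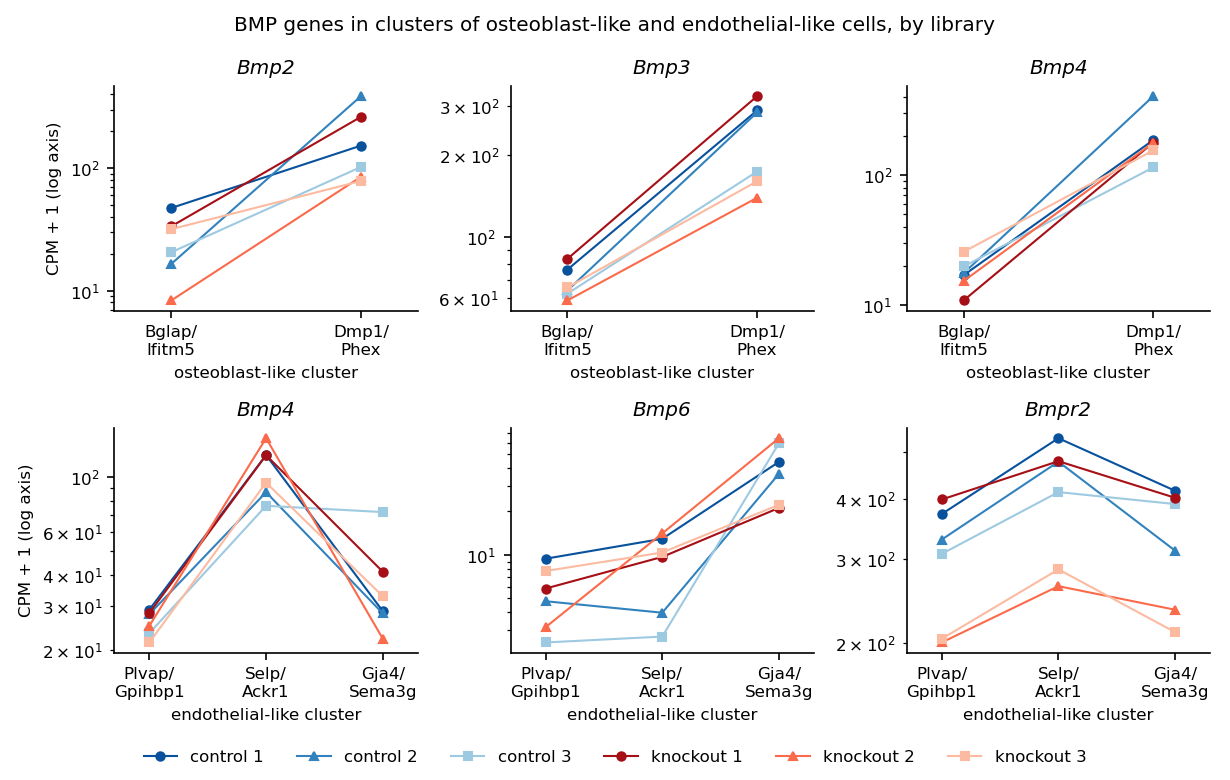
CPM + 1 (log axis) of BMP genes in the clusters of osteoblast-like cells (top) and endothelial-like cells (bottom), named by leading genes, with a line for each library. Bmp2, Bmp3 and Bmp4 lie higher in the Dmp1 cluster in 6 of 6 libraries, Bmp4 and Bmpr2 have higher CPM in the Selp cluster than in the Plvap cluster (Bmpr2 not in mean UMIs per cell), and Bmp6 is higher in the Gja4 cluster.

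Taken as whole classes, cartilage-like and endothelial-like cells each differed from the other stromal-like cells, which are the stromal cells outside cartilage and bone. Bmp6 and Nog were higher in cartilage-like cells in 6 of 6 libraries, with means of 30.6 against 5.77 CPM and 26.9 against 4.83 CPM. Bmp4 was higher in other stromal-like cells in 6 of 6 libraries, at 12.1 against 1.82 CPM. Endothelial-like cells exceeded other stromal-like cells in 6 of 6 libraries for Bmp2, Bmp4 and Bmpr2, and fell below them in 6 of 6 for Bmp3, Bmp7, Nog, Grem1, Bmpr1a and Bmpr1b. Bmp7 was very low in both classes, at 0.0882 against 1.01 CPM. Grem1 was at 0.848 against 59.4 CPM. Bmpr1a, at 4.62 against 86.9 CPM, had the opposite order to Bmpr2. Counted as UMIs per cell, however, Bmp2 (0.472 against 0.672) and Bmpr2 (3.17 against 3.78) had lower means in endothelial-like than in other stromal-like cells, with 3 of 6 libraries in each direction, and Bmp4 was higher in 5 of 6. In CPM the exact permutation p was 0.0312 for each of these comparisons, the smallest possible, and 0.125 after adjustment over the 80 comparisons.

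The genes with the most similar pattern over the 16 classes were taken from 10678 genes that reached 20 CPM in a class. They are given as a description, since classes share libraries and depth. Nog was most like Slc1a1 (Pearson r = 0.969), Slc38a4 and Tpd52l1, and Bmp6 was most like Hmgcs1 (r = 0.886), Fdft1 and Slc1a1. Hmgcs1 and Fdft1 encode enzymes of cholesterol synthesis. Bmp2 was most like Kank1 (r = 0.923), Ergic2 and P3h2. Bmp3 was most like Robo2 (r = 0.949), Fat3 and Kazald1. Bmp4 lay closest to Pdgfd (r = 0.954), a growth factor of the PDGF family, Nhsl1 and Fam171a1. Bmp7 lay closest to Tox (r = 0.862), Tcf7 and Camk2b, of which Tox and Tcf7 are known as T-cell factors. Grem1 was most like Pappa (r = 0.922), Rspo3 and Gzme. Among the receptors, Bmpr1a was most like F3 (r = 0.964), Col6a3 and Dync2li1, Bmpr1b was most like Sod3 (r = 0.955), and Bmpr2 was most like Tsen34 (r = 0.971), Dock1 and Lrrc58.

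Other genes of the pathway were read from fixed lists. Among the other ligands, 4 of 10 reached a mean of 20 CPM in a class. Bmp8a (118 ± 63.5 CPM) and Gdf5 (115 ± 82.7 CPM) were highest in HTC-like cells, as Bmp2 and Bmp6 were, whereas Bmp5 (39.7 ± 12.5 CPM) was highest in pericyte-like and Gdf10 (60.2 ± 60.4 CPM) in progenitor fibroblast-like cells (SD, n = 6). Among the other receptors and coreceptors, 7 of the 8 with a UMI did so. Endoglin (Eng, 925 ± 127 CPM), a coreceptor of vessels, and the type I receptor Acvrl1 (110 ± 5.92 CPM) were highest in endothelial-like cells, the class that held much Bmpr2 and little Bmpr1a. Acvr1, a further type I receptor, was highest in periosteal-like cells at 74.6 ± 21.1 CPM, and the decoy receptor Bambi in HTC-like cells at 348 ± 115 CPM.

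Of the other antagonists and modulators, 10 of 14 reached 20 CPM. The classes of Nbl1 (691 ± 405 CPM in tendon-like cells), Twsg1 (176 ± 45.5 CPM in chondrocyte-like cells), Crim1 (292 ± 156 CPM in endothelial-like cells) and Fst (166 ± 38.0 CPM in periosteal-like cells) all differed from those of Nog and Grem1. The SMADs reached 20 CPM in 5 of 6 cases. Smad1 (211 ± 48.6 CPM) and Smad5 (119 ± 25.2 CPM), which carry the BMP signal, were highest in endothelial-like cells, and Smad4 in progenitor fibroblast-like cells. Smad7, an inhibitory SMAD, was highest in T and NK-like cells. Of the known targets 10 of 13 reached 20 CPM, and Id3, the target with the most UMIs, was highest in marrow stromal-like cells at 1742 ± 764 CPM.

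The last comparison asked whether the levels differed between the genotype labels. UMIs were summed per library and class, and all genes that passed the filter on low counts were tested with the quasi-likelihood test of edgeR, adjusted over all of them. None of the BMP genes passed in any class, and neither did any other gene. In cartilage-like cells 0 of 10 passed, with 0% of 14598 genes called, and the shares called were likewise 0% in osteoblast-like (0 of 7 BMP genes tested), other stromal-like (0 of 10), endothelial-like (0 of 6), pericyte-like (0 of 5) and macrophage-like cells (0 of 5). At an unadjusted p under 0.05, edgeR gave 0 BMP genes in each of these classes, against 2.49%, 3.93%, 2.22%, 5.5%, 4.22% and 1.89% of all genes. DESeq2 called 2 genes in macrophage-like cells, neither of them a BMP gene, and 0 in the other 5 classes. Leaving out knockout 3, or any other single library, also gave 0 BMP genes called in each class. The counts at an unadjusted p did depend on the filter on low counts and on the libraries used. With no filter they were 3, 1, 0, 2, 2 and 0 of 10 BMP genes in the 6 classes as listed. The shares of all genes were then 4.55%, 5.6%, 3.05%, 5.6%, 5% and 2.94%. Without knockout 1 the counts were 2 of 10, 2 of 9, 4 of 10, 2 of 8, 1 of 7 and 1 of 6 BMP genes tested in the same 6 classes. The share of all genes under 0.05 was then 12.9% to 14.9%. Without any other single library the counts were 0 to 2 BMP genes per class, with 0.966% to 4.52% of all genes. The 2 came in osteoblast-like cells without control 3 (2 of 9).

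In cartilage-like cells, the class that the Col2a1-driven Cre addresses, Bmp2 stood at 204, 68.7 and 28.8 CPM in the controls and at 342, 14.7 and 224 CPM in the labelled knockouts. The log2 fold change was 1.03 ± 0.91 (SE, edgeR adjusted p = 0.999), and the labelled knockouts held both the highest and the lowest library. Bmp6 was at 49.6, 18.7 and 8.69 CPM against 44.7, 19.9 and 42.01 CPM, and Nog at 40.1, 17.5 and 5.41 CPM against 34.6, 4.195 and 59.6 CPM. Their log2 fold changes were 0.58 ± 0.54 and 0.83 ± 0.76. For the receptors, Bmpr1a stood at 89.2, 73.0 and 102 CPM against 105, 44.1 and 51.0 CPM, and Bmpr2 at 147, 117 and 123 CPM against 153, 49.3 and 62.6 CPM. Knockout 1 was the highest library for both receptors and knockouts 2 and 3 were the lowest, with log2 fold changes of -0.36 ± 0.34 and -0.50 ± 0.39. Without knockouts 2 and 3, which left 1 library in that group, both turned to 0.24. The other 5 genes had log2 fold changes between -0.69 and 0.81. Cartilage-like cells pool chondrocyte-like and HTC-like cells, in shares that varied between libraries. HTC-like cells were 93 of 606, 10 of 549 and 16 of 542 in controls 1 to 3. They were 46 of 338, 25 of 51 and 409 of 1698 in knockouts 1 to 3. How far this mix moved the fold changes was not tested. CPM of the groups overlapped for all 10, where 7.39% of 16883 genes with at least 30 UMIs did not overlap.

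**Figure D5:**
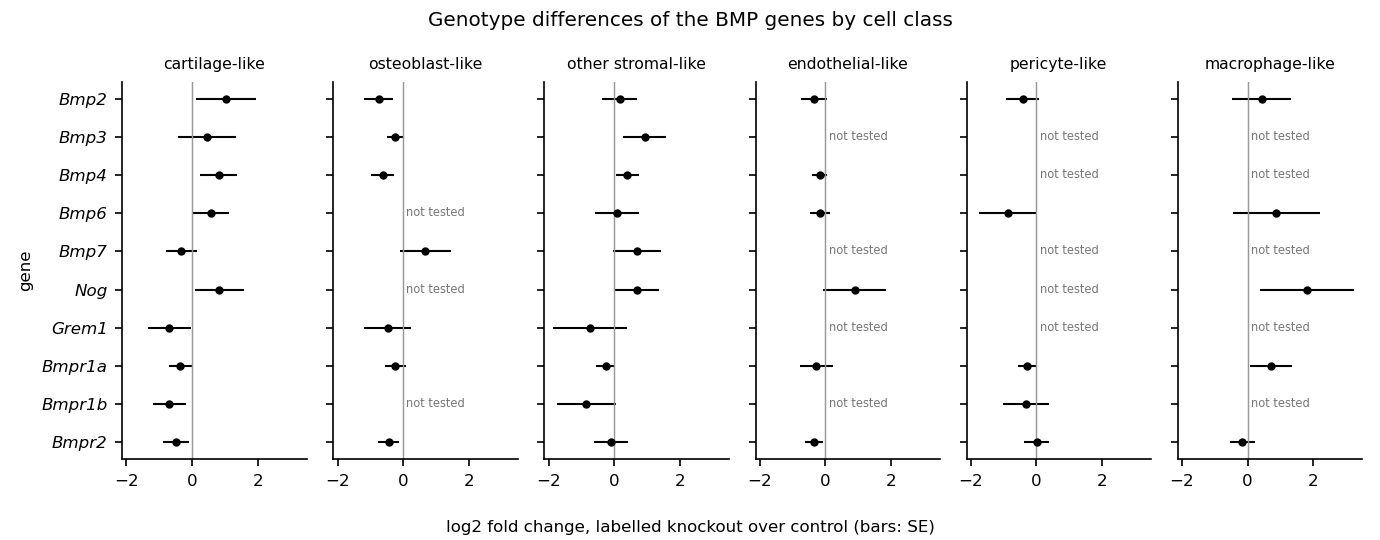
log2 fold change of each BMP gene, labelled knockout over control, by edgeR in 6 cell classes (x axis, bars are SE); genes filtered for low counts are marked as not tested. The adjusted p-values were 0.815 or more throughout, and no estimate passed the threshold of 0.05.

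The effect of the label in cartilage-like cells was also compared with that in other stromal-like cells, with the library as a block. None of the 10 genes passed (0% of 17266 genes called, 2.64% at an unadjusted p under 0.05 and 0 BMP genes among them), and the largest difference was 0.91 ± 0.78 for Bmp2. In osteoblast-like cells the log2 fold changes ran from -0.75 ± 0.44 for Bmp2 to 0.67 ± 0.77 for Bmp7, with Bmp4 at -0.63 ± 0.34 (edgeR adjusted p = 0.931 for Bmp2 and Bmp4 and 0.936 for Bmp7). This class pools the Bglap and Dmp1 clusters. The Dmp1 cluster held 41 of 138, 25 of 102 and 51 of 275 cells in controls 1 to 3. In knockouts 1 to 3 it held 11 of 58, 187 of 1571 and 119 of 598, and the effect of this mix was not tested. Endothelial-like cells showed -0.35 ± 0.27 for Bmpr2 and -0.18 ± 0.22 for Bmp4. In macrophage-like cells the CPM of Bmp4 did not overlap between the groups, at 0.307 to 0.701 CPM against 0.742 to 0.885 CPM, which is under 1 CPM throughout. That was 1 of 8 genes with at least 30 UMIs there, with 5.1% of all such genes not overlapping, and it was 0 of 9, 10, 8 and 7 in osteoblast-like, other stromal-like, endothelial-like and pericyte-like cells, where 8.72%, 5.09%, 11.1% and 9.88% did not overlap.

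The classes in which single genes peaked were tested as well, after the other results were known. In HTC-like, inflammatory fibroblast-like and periosteal-like cells no gene passed and no BMP gene had an unadjusted p under 0.05, with 0.795%, 2.62% and 2.48% of all genes under it. In HTC-like cells Bmp2 had a log2 fold change of 1.14 ± 0.88 and Nog of 0.25 ± 0.62. In marrow stromal-like cells no gene passed either (0% of 10841), but 3 of the 8 BMP genes tested had an unadjusted p under 0.05, against 4.82% of all genes. They were Bmp3 (log2 fold change 0.89 ± 0.25), Grem1 (-1.83 ± 0.61) and Bmp6 (-1.40 ± 0.62), each with an edgeR adjusted p of 0.927. Bmp3 stood there at 19.7, 23.05 and 18.2 CPM in the controls and at 38.6, 31.2 and 36.4 CPM in the labelled knockouts. Knockout 1 contributed only 15 marrow stromal-like cells.

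None of the 48 pathway genes outside the 10 passed in any of the classes. In cartilage-like cells 5 of the 38 tested had an unadjusted p under 0.05, against 2.49% of all genes, and the median log2 fold change of the 38 was -0.15. That p was met by 5 of 33 in endothelial-like cells (5.5% of all genes), 8 of 36 in periosteal-like cells (2.48%), 6 of 32 in marrow stromal-like cells (4.82%) and 0 of 26 in macrophage-like cells (1.89%). Osteoblast-like cells had 3 of 36 (3.93%), other stromal-like cells 3 of 38 (2.22%) and pericyte-like cells 4 of 31 (4.22%). Inflammatory fibroblast-like cells had 3 of 28 (2.62%) and HTC-like cells 0 of 24 (0.795%).

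The genes lie apart in the genome (GENCODE M21 on GRCm38). Bmp2 is at chr2:133552159-133562885 on the plus strand, Bmp7 at chr2:172868012-172940321 and Grem1 at chr2:113746164-113758646, both on the minus strand. Bmp3 is at chr5:98854415-98884396 (plus), Bmp6 at chr13:38345107-38500302 (plus) and Nog at chr11:89300638-89302332 (minus). Bmp4 at chr14:46383520-46390669 (minus) overlaps Gm15217 and Gm15222 on the other strand, Bmp6 overlaps Txndc5 and 4930579J19Rik on the minus strand, and Bmpr1a at chr14:34410734-34503341 (minus) overlaps the antisense gene Gm17110. Bmpr1b is at chr3:141837136-142169425 (minus), and Bmpr2 at chr1:59763400-59879014 (plus) overlaps Gm38125. Whether counts were shared with these overlapping genes was not tested.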

How the data were processed

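Callus cells were sequenced in 6 libraries, 3 for each genotype label. The authors made the deposited counts, which are UMIs per gene and cell barcode without normalization. Their processing notes name Cell Ranger, Seurat and GRCm38. Replicate 3 of both groups has another gene list, so genes were joined by identifier, which kept 97.8% or more of the UMIs in a library.

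Cells needed 500 UMIs and 200 genes or more, with no more than 20% of UMIs from mitochondrial genes, and the cells with the highest Scrublet scores (scanpy 1.11.5, Python 3.11.15) were removed as doublets, 0.8% per 1000 cells. From 2000 variable genes, without the BMP genes and the pathway lists, 30 components were computed and the libraries integrated by RPCA in Seurat 5.3.0 (R 4.3.3). Clusters (leidenalg 0.10.2, 20 neighbours, resolution 0.8) were found in all cells and again in stromal cells. A name needed 3 markers, each in 25% or more of the cells of a cluster and with a level 2 times that of the median cluster or higher. The naming thresholds and the separation of clusters with few UMIs were chosen after seeing the data and did not use the genotype labels.

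UMIs were summed per library and class, with at least 10 cells. Differences between classes are of log2(CPM + 1), which understates the change of low genes, and were tested with exact sign flips (scipy 1.17.1). Genotype was tested by two-sided quasi-likelihood F tests in edgeR 4.0.16 after filterByExpr and TMM, with Benjamini-Hochberg adjustment, with DESeq2 1.42.0 as an alternative, and the tests were tested on simulated data. Floors of 3 UMIs cover counting error only. Alternatives were a stricter cell filter (1000 genes, 10% mitochondrial UMIs), doublets kept, no integration, resolutions of 0.4 and 1.2, no filter on low counts, mitochondrial and rRNA-overlapping genes left out, libraries left out, a replicate block, a pseudocount of 10 and UMIs per cell. The genes and the lists were chosen with earlier results of these data known. All 10 genes are named, with up to 4 genes with the most UMIs from each pathway list and up to 3 genes most like each, of which some are not reported here. The cluster comparisons, library checks and 4 further genotype classes fall outside that rule and were chosen after values were seen. The paper's other experiments were not used in these comparisons.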

Additional observations from a re-analysis of the deposited data

Results flagged for a closer look

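Stromal cells in the clusters with few UMIs belong to no class and enter none of the comparisons above. Of the 10 BMP genes, 4 were nevertheless found in them above the level of neutrophil-like cells in 6 of 6 libraries. Bmp2 had a median of 393 CPM over the libraries (587, 418 and 45.6 CPM in the controls, 458, 5.68 and 369 CPM in the labelled knockouts). Bmpr2 had a median of 119 CPM, Bmpr1a of 60.0 CPM and Grem1 of 10.6 CPM. The leading genes of these clusters were cartilage genes such as Col10a1, Hapln1 and Col2a1, beside Lyz2, Apoe and Saa3. They held 7.77% of all Bmp2 UMIs. Counting these cells as cartilage-like, an alternative added after seeing the data, left 0 of 10 BMP genes called between the genotype labels.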

How the results depend on the processing

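The 6 genotype results and the comparison of cartilage-like with other stromal-like cells kept 0 BMP genes called under every alternative run, and leaving out each library in turn gave 0 to 0. With no filter on low counts, edgeR called 110, 45, 0, 52, 106 and 7 genes in cartilage-like, osteoblast-like, other stromal-like, endothelial-like, pericyte-like and macrophage-like cells, none of them a BMP gene, and DESeq2 called 2 in macrophage-like cells. The replicate numbers were not shown to pair the samples: over all cells the deviations of same-numbered libraries correlated at 0.447, 0.257 and -0.043, and with a replicate block 0 BMP genes were called in each class. In cartilage-like cells, signs of uncalled log2 fold changes turned: without integration for Bmp3 (-0.036) and Bmp4 (-0.13), without replicate 3 of both groups for Bmp6 (-0.017) and Nog (-0.38), and without knockouts 2 and 3 for Bmp3 (-1.30), Bmp4 (-0.038), Bmpr1a (0.24) and Bmpr2 (0.24). Leaving out a library gave -0.39 (without knockout 2) to 1.09 for Bmp3. In the order of classes, the first step of Bmp6 was -0.056 with a stricter cell filter and -0.054 (without control 2) to 1.00 leaving out a library. That of Bmp7 was -0.043 with a pseudocount of 10 and -0.35 to 0.92 leaving out a library. The causes were not tested. In mean UMIs per cell, Grem1 (1.10 in marrow stromal-like), Bmpr1a (2.06 in periosteal-like) and Bmpr2 (3.17 in endothelial-like) were highest in inflammatory fibroblast-like cells instead. The periosteal-like class was not found without integration or at resolution 0.4, so its values have no such alternative. Bmp7 and Bmpr1b had the fewest UMIs of the 10 genes, and 3 libraries held only 10 to 25 HTC-like cells.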
